A study of Homo sapiens with 6 samples.

Results

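TRIM22 was the TRIM family gene that separated MCF10A cells overexpressing GIRK1 from their controls most clearly. Its level was 5.42 times that of the eGFP line and 7.68 times that of the untransfected library WT replicate 2. The other library labelled as untransfected was left out of this comparison. TRIM21, TRIM5 and TRIM14, other interferon-responsive members, were 2.27 to 3.64 times higher than in the eGFP line but missed the adjusted threshold. Most of the remaining TRIM genes that were expressed lay within 2-fold of the controls. The family was taken as every amplicon whose gene symbol is TRIM followed by a digit, which gave 72 of the 20812 genes on the panel.

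MCF10A is a benign human mammary epithelial cell line. The study compared cells that stably overexpressed GIRK1 (KCNJ3, a subunit of G-protein-activated inwardly rectifying potassium channels), cells that stably overexpressed eGFP as a control, and untransfected (WT) cells, with 2 libraries for each, 6 in all. Both kinds of transfected cells had received a bicistronic eGFP vector, had been selected with G418 and had been sorted on eGFP fluorescence, so the GIRK1 cells carried eGFP too. Expression was measured by amplicon sequencing with 1 amplicon per gene, as read counts and as RPM, each count scaled to the total of its library. The sources differ on what the 2 libraries of a group are: the design text of the series speaks of 2 overexpressing and 2 control lines, the methods of 2 replicates. None says that they came from separate cultures, so the p-values measure the spread between these libraries, which may be technical. Each pair is called a line here.

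The libraries held 2506120 to 16040556 reads, so that 3 reads stood for 0.187 to 1.20 RPM. KCNJ3 had 0 reads in WT replicate 2 and in both eGFP libraries, and 217 and 355 RPM in the GIRK1 libraries. The library labelled WT replicate 1 went against its label. There KCNJ3 was at 19.2 RPM, the summed level of 8 basal epithelial markers (such as KRT5 and KRT14) was 395 RPM against 8384 to 15780 RPM in the other 5 libraries, and the sum of 10 luminal markers (such as ESR1 and TFF1) was 16810 RPM against 531.7 to 1025 RPM. KRT5 was at 0.798 RPM there, while ESR1, TFF1 and KRT19, at 0 in the other 5 libraries, were at 192, 5106 and 924 RPM. In those 5 libraries 7 of the 8 basal markers exceeded 3 reads, and the amplicon of TP63 was at 0 throughout. Comparisons were therefore made between the GIRK1 libraries and the eGFP libraries, and between the GIRK1 libraries and WT replicate 2, and the library labelled WT replicate 1 is shown apart. The file names carry a code that separates the GIRK1 libraries from the others, and whatever it stands for cannot be told apart from GIRK1 overexpression.

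TRIM proteins share a tripartite motif, a RING domain followed by B-boxes and a coiled coil, and most act as E3 ubiquitin ligases. What follows the coiled coil differs between subfamilies: a PRY-SPRY domain that binds other proteins, a PHD finger with a bromodomain that reads chromatin, or others. A group of them is transcribed in response to interferon through interferon-stimulated response elements in promoters. In epithelial cells these members restrict viruses or tune the sensing of foreign nucleic acid, while many other members serve in chromatin, cell division or trafficking and are expressed without a stimulus. The interferon-responsive list used here, written from general knowledge, held 10 members (TRIM5, TRIM14, TRIM21, TRIM22, TRIM25, TRIM26, TRIM34, TRIM38, TRIM56 and TRIM69). The other 62 are called constitutive only as the remainder of the family, since 35 of them had no reads or too few to be tested.

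The core letters of this element were searched in the promoters. In RefSeq promoters of build GRCh38.p14, from 250 bases before to 50 bases after the start of transcription, the letters GAAANNGAAA, searched on both strands, stood in 3.57% of 35116 promoters. Of the 72 members 51 had an entry; TRIM22 had none. The letters were found in 6 of 9 promoters of interferon-responsive members (TRIM5, TRIM14, TRIM21, TRIM26, TRIM34 and TRIM69) and in 4 of 42 of the others (TRIM2, TRIM16, TRIM44 and TRIM64C). The core of another element of interferon-responsive promoters, TTCNNNGAA, stood in 7.66% of all promoters, in 0 of the 9 and in 10 of the 42. A match of letters is not a binding site. The stretches around the matches are shown for the 3 members with matches that had the largest differences, for TRIM26, which differed little, and for TRIM44, a constitutive member. Each is written 5′ to 3′ on the strand of its gene, with the matched letters in capitals; in TRIM21 and TRIM26 a pair of overlapping matches runs together.
TRIM21 (chr11:4393663-4393692, minus strand): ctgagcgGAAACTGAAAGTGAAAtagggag
TRIM5 (chr11:5685075-5685126, minus strand): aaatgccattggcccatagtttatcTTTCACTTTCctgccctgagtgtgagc
TRIM14 (chr9:98119223-98119273, minus strand): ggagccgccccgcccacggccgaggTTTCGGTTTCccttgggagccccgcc
TRIM26 (chr6:30213560-30213625, minus strand): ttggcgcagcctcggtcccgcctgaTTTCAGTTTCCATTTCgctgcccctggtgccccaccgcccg
TRIM44 (chr11:35662715-35662774, plus strand): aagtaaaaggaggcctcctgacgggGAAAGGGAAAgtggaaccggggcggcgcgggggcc
The matches of TRIM5 and TRIM14 began 27 and 26 bases upstream of the start, that of TRIM44 35 bases and those of TRIM26 194 bases upstream, and those of TRIM21 lay 18 to 33 bases into the transcript.

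Of the 72 members, 26 had no read in any of the 6 libraries, and 35 passed the filter on low counts and were tested among 11779 genes. The other 11 had reads but too few; within the 5 libraries compared, 9 of them had reads, none more than 14 in a library. Of the interferon-responsive list 8 were tested. TRIM34, a close relative of TRIM5, had 0 reads in the 5 libraries, which allows up to 0.187 to 0.585 RPM, and TRIM69, which restricts some RNA viruses, had 1 read each in eGFP replicate 2 and GIRK1 replicate 2. Among the other 62 members 27 were tested. Since each gene is seen through its own amplicon, which may amplify better or worse than another, levels are compared between libraries and not between genes.

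TRIM22, an interferon-induced ligase that restricts several viruses, had 8.92 RPM in WT replicate 2, 11.5 and 12.7 RPM in the eGFP libraries and 66.2 and 68.8 RPM in the GIRK1 libraries. Both GIRK1 libraries lay far above the 3 controls, and the replicates of each line were close together: 12.1 ± 0.845 RPM in the eGFP line and 67.5 ± 1.87 RPM in the GIRK1 line (mean ± SD, n = 2 each). The difference from the eGFP line was 2.44 on the log2 scale (SE 0.23, 95% interval 1.89 to 2.98), with an adjusted p of 0.00557 (edgeR's quasi-likelihood test, Benjamini-Hochberg adjustment over all genes tested). Against WT replicate 2 it was 2.94 (SE 0.31) with an adjusted p of 0.0187 by the same test, in which the lone WT library is assumed to vary like the others. TRIM22 was the single member of the 35 that rose in either comparison, and 0 of the 35 fell. Over all genes tested 0.756% were called higher and 0.840% lower against the eGFP line, and 0.195% higher and 0.0340% lower against WT replicate 2.

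When the library labelled WT replicate 1, in which TRIM22 had 0 reads, was added as a second WT library, the estimates for TRIM22 kept their direction but the adjusted p was 0.934 against the eGFP line and 0.787 against WT by the same edgeR test. In that fit 0 of 11546 genes passed in either comparison, with 606 and 648 at an unadjusted p below 0.05.

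TRIM21, a cytosolic antibody receptor known as the Ro52 autoantigen, had 4.18 RPM in WT replicate 2, 4.68 and 5.77 RPM in the eGFP libraries and 14.9 and 24.4 RPM in the GIRK1 libraries. TRIM5, which restricts retroviruses at the capsid, had 15.6 RPM in WT replicate 2, 15.8 and 16.7 RPM in the eGFP libraries and 37.7 and 51.7 RPM in the GIRK1 libraries. TRIM14, a RING-less adaptor of antiviral signalling at mitochondria, had 31.9 RPM in WT replicate 2, 26.7 and 37.8 RPM in the eGFP libraries and 62.6 and 87.8 RPM in the GIRK1 libraries. In all 3 genes GIRK1 replicate 2 was the highest library, GIRK1 replicate 1 the next, and the controls lay below both. Against the eGFP line the log2 differences were 1.86 (SE 0.36) for TRIM21, 1.42 (SE 0.26) for TRIM5 and 1.18 (SE 0.27) for TRIM14, with edgeR adjusted p of 0.0623, 0.0565 and 0.0933. Against WT replicate 2 they were 2.25, 1.54 and 1.26, with edgeR adjusted p of 0.213, 0.278 and 0.401. These members therefore missed the threshold. Against the eGFP line TRIM21 passed in 7 of 13 alternative settings, TRIM5 in 6 and TRIM14 in 5. For each gene some of these settings left a line with 1 library. Without GIRK1 replicate 2 the log2 differences from the eGFP line were 1.45 for TRIM21, 1.16 for TRIM5 and 0.90 for TRIM14.

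**Figure D1:**
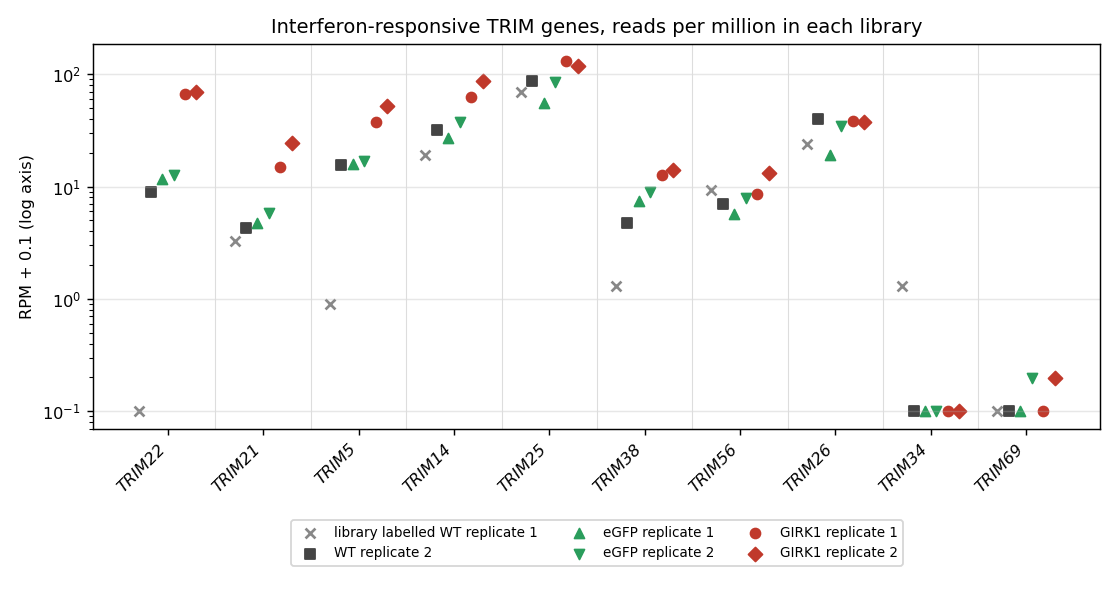
RPM plus 0.1 (log axis) of the 10 interferon-responsive TRIM genes in each of the 6 libraries, one symbol per library. For TRIM22, TRIM21, TRIM5, TRIM14, TRIM25, TRIM38 and TRIM56 both GIRK1 libraries (red) sit above WT replicate 2 and both eGFP libraries, by the widest margin for TRIM22, while TRIM34 and TRIM69 stay at or near 0 in those 5 libraries.

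TRIM25, which ubiquitinates the RNA sensor RIG-I and also acts as a ligase for ISG15, had 86.6 RPM in WT replicate 2, 55.8 and 84.6 RPM in the eGFP libraries and 130 and 118 RPM in the GIRK1 libraries. TRIM38, a regulator of innate immune signalling, had 4.61 RPM in WT replicate 2, 7.41 and 8.79 RPM in the eGFP libraries and 12.5 and 13.8 RPM in the GIRK1 libraries. For both genes the GIRK1 libraries lay above all 3 controls. The log2 differences from the eGFP line were 0.79 (SE 0.24, edgeR adjusted p = 0.154) for TRIM25 and 0.66 (SE 0.29, edgeR adjusted p = 0.279) for TRIM38. Against WT replicate 2 they were 0.54 for TRIM25 and 1.53 for TRIM38, with edgeR adjusted p of 0.766 and 0.343. TRIM56, linked to sensing of cytosolic DNA, had 6.86, 5.66 and 7.82 RPM in the controls and 8.55 and 13.0 RPM in the GIRK1 libraries, which were 1.55 times the eGFP line (edgeR adjusted p = 0.372). TRIM26, linked to turnover of IRF3, was at 40.1, 18.9 and 34.3 RPM in the controls and 38.3 and 37.2 RPM in the GIRK1 libraries, which lay within the range of the controls.

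Seen as a list, the 8 tested interferon-responsive members had a median log2 difference of 0.99 from the eGFP line and 1.40 from WT replicate 2, while the medians over all 11779 genes were 0.02 and 0.01. An unadjusted p below 0.05 for a higher level was reached by 5 of the 8 against the eGFP line (8.13% of all genes) and by 5 of the 8 against WT replicate 2 (3.76% of all genes). In 7 of the 8 both GIRK1 libraries exceeded all 3 controls in normalized counts, as they did in 21.4% of all genes. The 2-fold rule of the study also asks that the replicates' coefficient of variation stay under 0.7. Of the 10 listed members TRIM5, TRIM14, TRIM21 and TRIM22 met it in the higher direction. So did 3.01% of the 20812 genes, a total that includes genes with too few reads to be tested. The list was assembled with earlier results of these data known and is no independent evidence of its direction, and both comparisons share the GIRK1 libraries.

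The genes of TRIM5, TRIM6, TRIM22 and TRIM34 adjoin each other on chromosome 11 (GENCODE, GRCh38). TRIM22 (chr11:5689689-5737089, plus strand) lies within the annotated span of TRIM5 (chr11:5663557-5938619, minus strand), but their exons share 0 bases. By the RefSeq start used above for the promoter of TRIM5 (chr11:5685075-5685126), TRIM5 does not reach TRIM22. TRIM6 (chr11:5596109-5612958), named here for its position after its values were seen, had 0.686 RPM (11 reads) in WT replicate 2, 1.95 and 2.25 RPM (10 and 23 reads) in the eGFP libraries and 1.26 RPM in each GIRK1 library (14 and 13 reads). It did not pass in either comparison (edgeR adjusted p = 0.480 and 0.856). Within this cluster the GIRK1 libraries were thus above the controls for TRIM22 and TRIM5 and without a read for TRIM34. For TRIM6 they were between WT and eGFP, an order that its few reads do not establish.

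**Figure D2:**
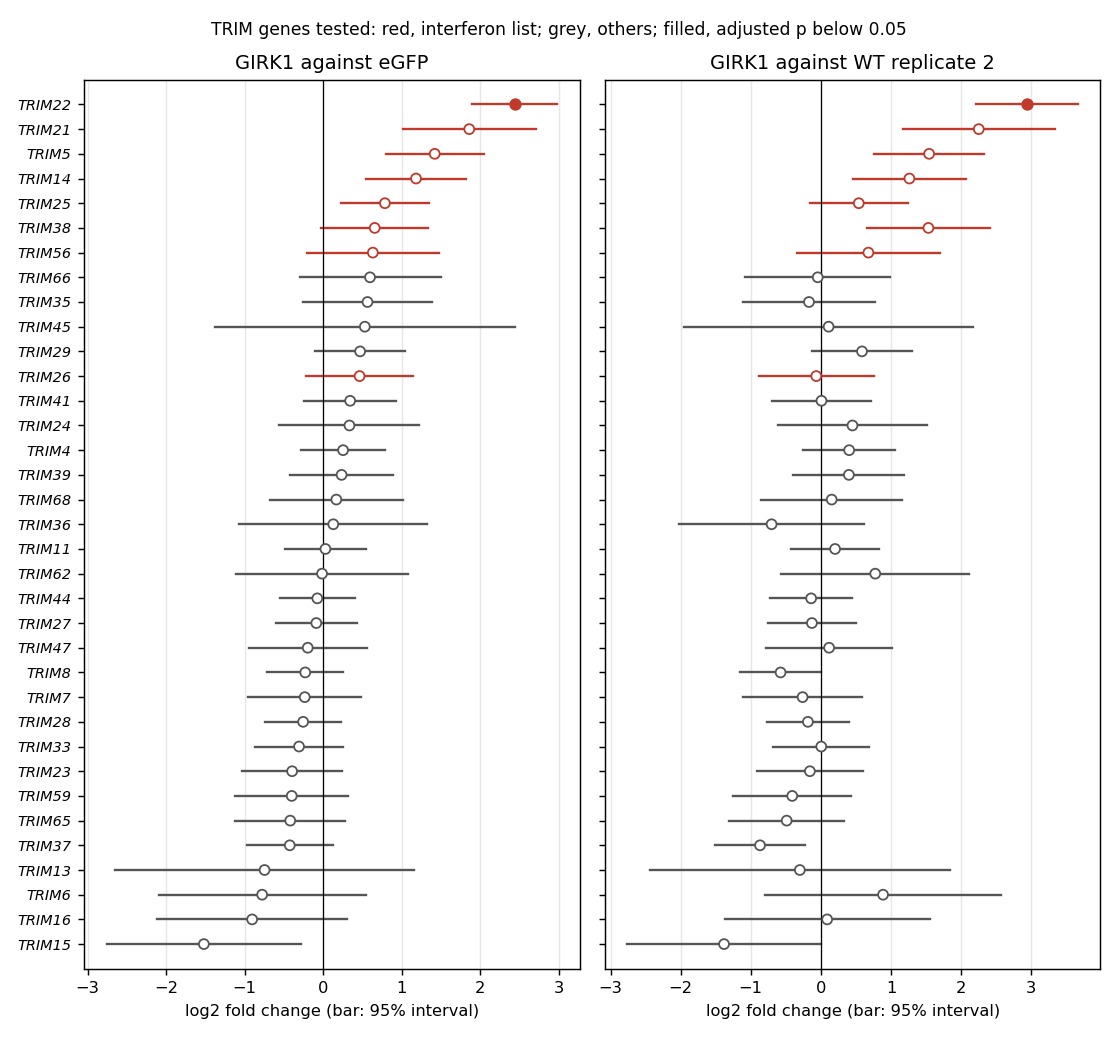
Log2 fold change with its 95% interval for the 35 TRIM genes tested, for GIRK1 against eGFP (left) and GIRK1 against WT replicate 2 (right), in the order of the left panel; red marks the interferon-responsive list and filled points an adjusted p below 0.05. TRIM22 is the filled point in both panels, 7 of the 8 red genes lie at the top of the left panel, and the grey genes spread around 0.

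Among the 27 tested members outside the list the median log2 difference was -0.09 from the eGFP line and -0.05 from WT replicate 2. None of the 27 passed the adjusted threshold in either comparison, by edgeR or by DESeq2; at an unadjusted p below 0.05, 0 were higher and 1 lower against the eGFP line (10.7% of all genes were lower), and 0 were higher and 3 lower against WT replicate 2 (3.62% of all genes were lower). The estimate against the eGFP line was below 2-fold for 26 of the 27, and for 12 of them the whole 95% interval lay within 2-fold. Against WT replicate 2 the interval did so for 7. Both GIRK1 libraries were above all 3 controls for TRIM4 and TRIM29, and below them for 8 of the 27 members. Over all genes 21.4% were above and 20.0% below. Absence of a call does not show that these members were unchanged. Against the eGFP line the intervals of the other 15 reached beyond 2-fold, and an interval within 2-fold still allows a smaller change.

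The chromatin-reading members with a PHD finger and a bromodomain were all tested. TRIM28 (KAP1), the corepressor of KRAB zinc finger proteins, had 233 RPM in WT replicate 2, 235 and 232 RPM in the eGFP libraries and 205 and 198 RPM in the GIRK1 libraries. These GIRK1 libraries were slightly below the 3 controls, and the log2 difference from the eGFP line was -0.25 (95% interval -0.74 to 0.23, edgeR adjusted p = 0.528). TRIM33, which acts in TGF-beta signalling, had 18.1 RPM in WT replicate 2, 19.9 and 23.3 RPM in the eGFP libraries and 17.1 and 18.8 RPM in the GIRK1 libraries. TRIM24, a cofactor of nuclear receptors, differed by 0.34 and TRIM66 by 0.60 on the log2 scale from the eGFP line, with intervals that included 0. Against WT replicate 2 TRIM24 differed by 0.45 and TRIM66 by -0.045. Of 7 partners of TRIM28 (SETDB1, ATF7IP, CBX1, CBX3, CBX5, CHD3 and CHD4), 0 passed the edgeR test in either comparison, also at an unadjusted p below 0.05, and their log2 differences from the eGFP line ran from -0.26 to 0.29. Over all genes 8.13% were higher and 10.7% lower at that level against the eGFP line. Against WT replicate 2 these shares were 3.76% and 3.62%.

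TRIM29 (ATDC), a RING-less member of basal epithelia, had 119 RPM in WT replicate 2, 132 and 115 RPM in the eGFP libraries and 203 and 150 RPM in the GIRK1 libraries. Both GIRK1 libraries were above the controls, though the replicates of the GIRK1 line were further apart than the controls were; the log2 difference from the eGFP line was 0.47 (SE 0.24, edgeR adjusted p = 0.336). TRIM37, which limits the formation of excess centrioles, had 51.1 RPM in WT replicate 2, 38.4 and 33.5 RPM in the eGFP libraries and 26.7 and 28.4 RPM in the GIRK1 libraries. The GIRK1 libraries were the lowest, with log2 differences of -0.42 (edgeR adjusted p = 0.361) from the eGFP line and -0.87 (edgeR adjusted p = 0.502) from WT replicate 2. TRIM16, also without a RING, had 13.0 RPM in WT replicate 2, 36.9 and 12.5 RPM in the eGFP libraries and 15.2 and 12.0 RPM in the GIRK1 libraries. Its eGFP replicates were 2.95-fold apart, so its difference of -0.90 from the eGFP line rests on eGFP replicate 1; without that library it was 0.14, and without eGFP replicate 2 it was -1.54 and passed the edgeR test (adjusted p = 0.00148). TRIM16 also has a close copy, TRIM16L, so the assignment of its reads is uncertain.

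The remaining members with many reads moved little. TRIM44, TRIM8, TRIM11, TRIM27 and TRIM41 had log2 differences from the eGFP line of -0.07, -0.23, 0.03, -0.09 and 0.35. For the PRY-SPRY member TRIM27, for example, all 5 libraries lay between 33.5 and 38.9 RPM. TRIM8 was at 83.8 RPM in WT replicate 2 and at 52.5 and 58.3 RPM in the GIRK1 libraries, with an unadjusted p of 0.0491 by edgeR against WT replicate 2 (adjusted p = 0.675). TRIM65, TRIM59 and TRIM23 were each lower in both GIRK1 libraries than in the 3 controls, with differences from the eGFP line of -0.42, -0.40 and -0.39 and edgeR adjusted p of 0.473, 0.505 and 0.459. TRIM35 and TRIM4, with differences from the eGFP line of 0.57 and 0.26, had edgeR adjusted p of 0.406 and 0.574. Against WT replicate 2 their differences were -0.17 and 0.40.

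TRIM15, a component of focal adhesions named here after its values were seen, was the member that met the 2-fold rule of the study in the lower direction, as did 3.28% of the 20812 genes. It had 2.99 RPM (48 reads) in WT replicate 2, 3.32 and 3.03 RPM (17 and 31 reads) in the eGFP libraries and 0.900 and 1.35 RPM (10 and 14 reads) in the GIRK1 libraries. The GIRK1 libraries were below the 3 controls, with a log2 difference of -1.52 from the eGFP line and an edgeR adjusted p of 0.192. At 10 to 48 reads a library, counting error alone is wide.

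**Figure D3:**
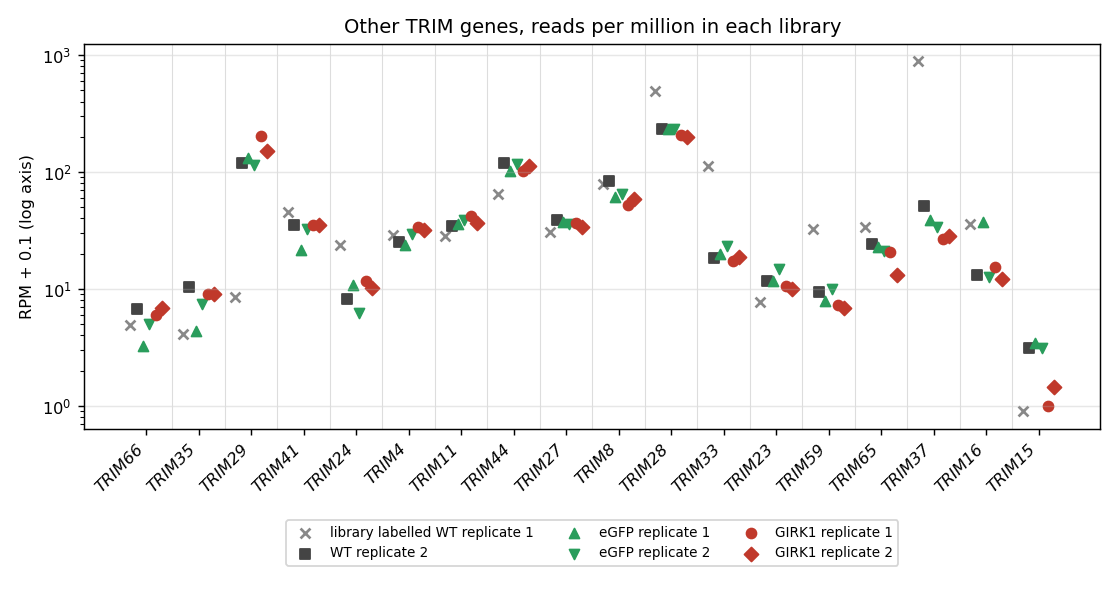
RPM plus 0.1 (log axis) of 18 constitutive TRIM genes in each of the 6 libraries, ordered from the largest positive to the largest negative log2 difference between GIRK1 and eGFP. The 5 libraries compared overlap or nearly overlap for most genes, TRIM15 at the right has both GIRK1 libraries below the controls, and the library labelled WT replicate 1 (crosses) departs from the others for TRIM29, TRIM28, TRIM33, TRIM59 and TRIM37.

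Family members with other names were measured too. PML, which organizes nuclear bodies and is also induced by interferon, had 15.7 RPM in WT replicate 2, 27.3 and 18.6 RPM in the eGFP libraries and 34.5 and 35.4 RPM in the GIRK1 libraries. Both GIRK1 libraries were above the controls, with a log2 difference of 0.57 from the eGFP line (edgeR adjusted p = 0.329) and 1.17 from WT replicate 2 (edgeR adjusted p = 0.491). MID2, a microtubule-associated ligase, lay within the range of the controls at 17.1 and 13.7 RPM. TRIML2 had 1.06 RPM in WT replicate 2, 14.4 and 6.45 RPM in the eGFP libraries and 3.15 and 3.58 RPM in the GIRK1 libraries, which thus lay between both controls. Its log2 difference was -1.66 from the eGFP line and 1.68 from WT replicate 2 (edgeR adjusted p = 0.155 and 0.672). It met the 2-fold rule of the study in the lower direction, as did 3.28% of the 20812 genes, but its eGFP replicates were 2.24-fold apart. MID1, MEFV and TRIML1 had at most 1 read in each of the 5 libraries.

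Of 8 partners of TRIM25 in RNA sensing and in conjugation of the ubiquitin-like protein ISG15, 6 rose against the eGFP line: DDX58 (RIG-I), ISG15 itself, its activating enzyme UBA7, its conjugating enzyme UBE2L6, its ligase HERC5 and its protease USP18. DDX58, ISG15 and UBA7 also rose against WT replicate 2. Over all genes tested 0.756% were called higher against the eGFP line and 0.195% against WT replicate 2. ISG15 was at 36.2 RPM in WT replicate 2, at 15.2 and 24.0 RPM in the eGFP libraries and at 667 and 861 RPM in the GIRK1 libraries, a log2 difference of 5.24 from the eGFP line (edgeR adjusted p = 0.00159). MAVS, the adaptor below RIG-I, and RNF135, another ligase of RIG-I, had differences of -0.14 and -0.01 and did not pass.

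Of 12 genes of interferon signalling on the panel 11 were tested, and 3 rose against the eGFP line: STAT2, a signal transducer of type I interferon, its DNA-binding partner IRF9, and IRF7, which amplifies the transcription of interferon genes. IRF9 and IRF7 also rose against WT replicate 2. The shares of all genes called higher were 0.756% and 0.195% in these comparisons. IRF9 was at 14.8 RPM in WT replicate 2, at 15.6 and 13.0 RPM in the eGFP libraries and at 110 and 151 RPM in the GIRK1 libraries (log2 difference from the eGFP line 3.16, edgeR adjusted p = 0.00471). The receptor genes IFNAR1, IFNAR2, IFNGR1 and IFNGR2 and the kinase genes JAK1, JAK2 and TYK2 did not pass in either comparison. Nor did IRF1, a transcription factor of the interferon response, which had 12.7 RPM in WT replicate 2, 16.2 and 10.2 RPM in the eGFP libraries and 27.7 and 23.4 RPM in the GIRK1 libraries, above all 3 controls (log2 differences 0.92 and 1.03, edgeR adjusted p = 0.196 and 0.647). For IFNGR1, JAK1 and IFNAR1 too both GIRK1 libraries were above all 3 controls in normalized counts, and for IFNAR2 below them. Over all genes 21.4% were above and 20.0% below. The log2 differences from the eGFP line were 0.92 for IFNGR1 and 0.66 for JAK1 (edgeR adjusted p = 0.177 and 0.162). For IFNAR1 and IFNAR2 they were 0.08 and -0.28. SOCS3, a feedback inhibitor, had too few reads to be tested. Among 7 ubiquitin-conjugating enzymes and variants that work with RING ligases (UBE2D1 to UBE2D4, UBE2N, UBE2V1 and UBE2V2), 0 passed the edgeR test and 1 had an unadjusted p below 0.05 in each comparison, with differences from the eGFP line of -0.47 to 0.89. That gene was UBE2D4, higher in both. At that level 8.13% of all genes were higher against the eGFP line and 3.76% against WT replicate 2. In these bulk libraries a change in all cells and a change in a share of the cells cannot be told apart.

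The library labelled WT replicate 1 showed a different TRIM profile. TRIM37 had 880 RPM (2206 reads) there against 51.1 RPM in WT replicate 2, which was the highest of the other 5 libraries. TRIM22 had 0 reads, TRIM5 had 2 reads (0.798 RPM), and TRIM29 had 8.38 RPM against at least 115 RPM in each of the other libraries. Over the 72 members, 8 exceeded the highest of the other 5 libraries at least 2-fold, with exact 95% binomial intervals apart from those of all 5. By the same criteria 6 of the 35 tested members were below the lowest of them (TRIM5, TRIM7, TRIM22, TRIM29, TRIM38 and TRIM68). These intervals cover counting error only. The share of all genes that met these criteria was not counted. By a looser measure, 22.8% of 11455 genes were at least 2-fold higher in this library than in WT replicate 2. A difference between these libraries was therefore not particular to TRIM genes.

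**Figure D4:**
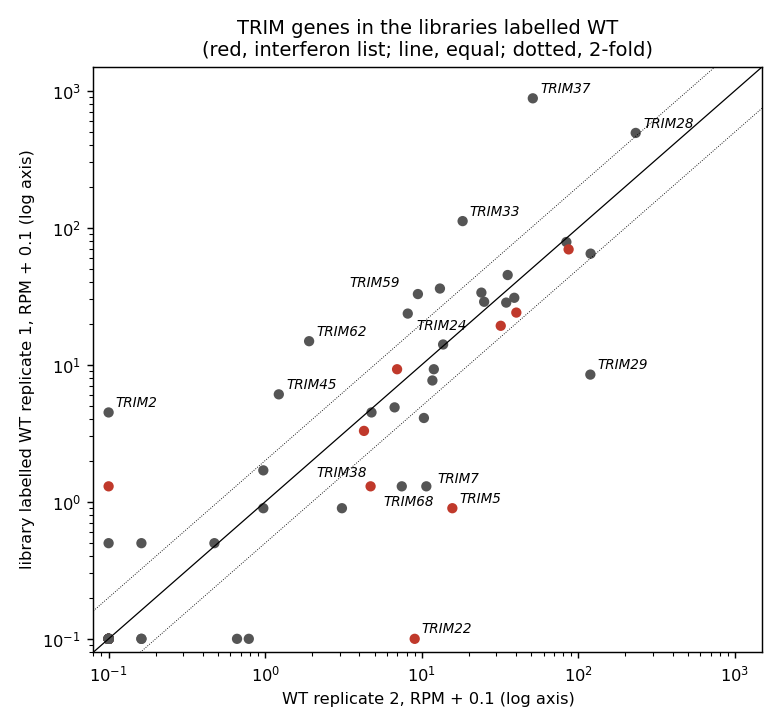
RPM plus 0.1 of the 72 TRIM genes in WT replicate 2 (x axis) and in the library labelled WT replicate 1 (y axis), both on log axes, with the line of equality and dotted lines at 2-fold; red marks the interferon-responsive list. TRIM37 lies far above the line at 880 against 51.1 RPM, and TRIM29, TRIM5 and TRIM22 lie far below it.

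TRIM37 was not alone in this. The gene lies at chr17:58982638-59106921 on the minus strand (GENCODE, GRCh38). Of 20 other genes with their middle within 1 Mb of it, 17 were at least 2-fold higher in the library labelled WT replicate 1 than in WT replicate 2, with a median log2 ratio of 2.15; the largest ratios were those of TEX14, RPS6KB1 and TUBD1. In the rest of the window of 5 Mb to each side 26 of 42 genes were, with a median of 1.34, while over 11455 genes 22.8% were and the median was 0.03. The window was chosen after the values were seen and 1 library stands on each side, so no test was made.

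**Figure D5:**
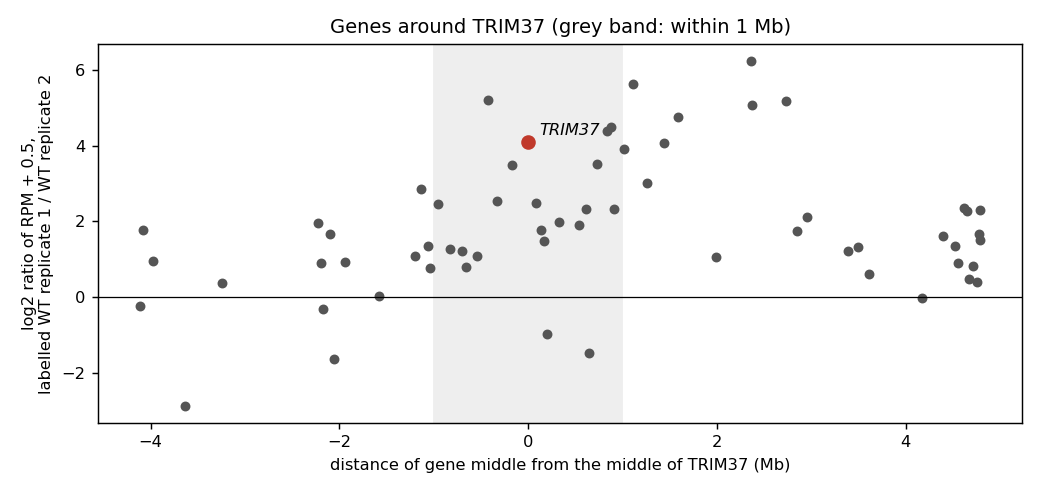
Log2 ratio of RPM plus 0.5 between the library labelled WT replicate 1 and WT replicate 2 for genes around TRIM37, by distance in Mb from the middle of TRIM37 (red). Within 1 Mb (grey band) 17 of 20 neighbours lie at a ratio of 2-fold or more, and higher ratios continue to the right of the band.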

How the data were processed

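The authors made amplicon libraries (Ion AmpliSeq Transcriptome), mapped reads to the reference of the panel with software of the Ion Torrent platform, and deposited the read counts of every library (not normalized) and RPM for each of 20812 amplicons. The deposited RPM equalled the count over the library total to within 0.00066. How reads of near-identical copies were assigned and whether the authors filtered reads is not given in the sources used here. The main test of the counts was made in edgeR 4.0.16 under R 4.3.3: TMM normalization, filterByExpr, glmQLFit and glmQLFTest on 5 libraries in 3 groups (WT replicate 2 a group of its own, 2 residual degrees of freedom), Benjamini-Hochberg adjustment over 11779 genes, threshold 0.05. Standard errors and 95% intervals came from the F value. The script was tested on simulated counts. The alternatives included DESeq2 1.42.0. Promoters came from RefSeq and gene positions from GENCODE, matched by symbol.

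The members and lists were chosen with earlier results of these data known. Named were the interferon-responsive list, members with an adjusted p below 0.05, the 6 largest differences each way among other members with a mean of 50 reads, the 8 other members with most reads, related genes with other symbols and KCNJ3. Replicate numbers are those of the labels. 1 further gene of interferon signalling is not reported here.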

Additional observations from a re-analysis of the deposited data

Results flagged for a closer look

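The library labelled WT replicate 1, which entered only the alternative fit with all 6 libraries, held TRIM genes at least 2-fold above the highest of the other 5 libraries. TRIM37 was at 880 RPM (2206 reads), 17.2 times the next library. TRIM28 was at 492 RPM and TRIM33 at 112 RPM, which were 2.09 and 4.80 times the next library. TRIM59 stood at 32.7 RPM, TRIM24 at 23.5 RPM and TRIM62 at 14.8 RPM, against highest values elsewhere of 9.97, 11.6 and 3.60 RPM. TRIM45 was at 5.99 RPM (15 reads). TRIM2, a neuronal ligase with an NHL domain, was at 4.39 RPM (11 reads) against 1 read in the other 5 libraries together. KCNJ3, the gene overexpressed in the GIRK1 line, was at 19.2 RPM (48 reads) in this library and at 0 in the other controls.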

How the results depend on the processing

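TRIM22 passed in every setting but the fit with all 6 libraries. Against the eGFP line, the 1 member called higher became 4 without a filter on low counts, 4 by the DESeq2 test, 3 with eGFP and WT replicate 2 as 1 control group, 0 with all 6 libraries, and 4 by the 2-fold rule of the study, which also gave 1 lower. Against WT replicate 2 it became 2 without a filter, 3 by the DESeq2 test and 0 with all 6 libraries. Leaving out single libraries gave 1 to 6 called higher and 0 to 1 lower against the eGFP line, and 1 to 5 higher and 0 to 1 lower against WT replicate 2; 6 higher and 1 lower (TRIM16) were reached without eGFP replicate 2, 4 without eGFP replicate 1, 2 without GIRK1 replicate 1, and 5 higher and 1 lower (TRIM37) against WT replicate 2 without eGFP replicate 1 and likewise without eGFP replicate 2. Such fits leave an arm with 1 library, assumed to vary like the others.

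The replicate numbers did not establish a pairing (correlation of the replicate differences 0.19, 2 pairs); with the replicate block 4 members were called higher against the eGFP line, and the medians against WT replicate 2 were 1.54 for the interferon-responsive and -0.08 for the other members.

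The median of the interferon-responsive members was 0.79 against the eGFP line and 1.52 against WT replicate 2 without a filter, 0.79 and 1.26 for a wider list with TRIM6 and TRIM31, and 1.85 against both WT libraries with all 6. Leaving out single libraries gave 0.81 to 1.22 and 1.13 to 1.56. The median of the others was 0.00 and -0.059 without a filter, -0.068 with 10 reads in every library or with covering reads, -0.10 with 1 control group and -0.11 against WT with all 6 libraries; leaving out single libraries gave -0.18 to -0.005 and -0.10 to -0.023. Of the values for single named genes, 540 kept their direction and call, 34 newly passed, 2 no longer passed (TRIM22, all 6 libraries) and 24, all uncalled in both settings, changed sign. With all 6 libraries the differences from WT became 0.29 for TRIM26, 0.19 for TRIM66, 0.34 for TRIM35, -0.11 for TRIM41, -0.41 for TRIM24, -0.72 for TRIM16, 0.14 for TRIM23, -1.72 for TRIM33, 0.27 for TRIM44 and 0.077 for TRIM27. With the replicate block those from WT replicate 2 were 0.12 for TRIM26, 0.13 for TRIM66 and -0.40 for TRIM16. Without a filter they were -0.006 for TRIM41 and -0.01 for TRIM33, and with covering reads -0.038 for TRIM41. Leaving out single libraries gave -0.171 to 0.073 for TRIM66, -0.011 to 0.027 for TRIM41, -0.075 to 0.234 for TRIM16 and -0.081 to 0.087 for TRIM33, and against the eGFP line -0.089 to 0.833 for TRIM24, -1.54 to 0.14 for TRIM16, -0.151 to 0.004 for TRIM44 and -0.056 to 0.112 for TRIM11. The cause of these moves was not tested.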
